A study of Homo sapiens with 4 samples.

Results

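EPHA7 and 9 related genes of the Eph receptor and ephrin family were followed across 4 Affymetrix arrays of LNCaP cells. The members were EPHA7, EPHA1, EPHA2, EPHA3, EPHA4, EPHB3, EPHB4, EFNA1, EFNA4 and EFNB2, taken as every probe set annotated to exactly 1 gene, that gene being in this set. They came to 29 probe sets of 10 genes, out of 44988 probe sets of 18132 genes that named 1 gene. LNCaP is an androgen-responsive prostate cancer line, and PC-3, the source of the exosomes, is a prostate cancer line whose growth does not need androgen. In 2 arrays the LNCAP cells had been treated with PC-3 exosomes, small vesicles released by cells, and in the other 2 arrays, labelled normal LNCAP cells, they had been given PBS, a buffer. All were grown in RPMI-1640 with fetal bovine serum. The labels give no dose, no time of exposure and nothing on whether the arrays of a group came from separate cultures, so the spread between arrays may be technical. The same line serves as treated and control cells, so the arrays speak for LNCaP in culture only.

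Eph receptors are the largest family of receptor tyrosine kinases, and ephrins are their ligands, held on the surface of neighbouring cells. EphA receptors mainly bind the lipid-anchored ephrin-A ligands and EphB receptors the transmembrane ephrin-B ligands, with EPHA4 binding both kinds. Contact sends a signal into the receptor cell and, in reverse, into the ephrin cell, which sets cell repulsion, adhesion and the borders between tissues. In prostate cancer EPHA2 is known for its high level in invasive lines such as PC-3 and its low level in LNCaP.

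The arrays were checked first for the identity of the cells. Of 7 markers of LNCaP 5 were measured by a probe set of 1 gene, and all 5 lay at or above the median of all genes, up to a mean intensity of 14098 for KLK3, which encodes prostate-specific antigen. Of 11 measured PC-3 markers 1, VIM, reached that median, and the list summed to 1001 and 1026 on the exosome arrays and to 1042 and 1032 on the PBS arrays. None of the measured genes of either list was past the threshold of the test described below. Fibroblast markers reached the median in 0 of 5 genes and leukocyte markers in 1 of 4. The extraction text names brain cortex although every sample label says LNCAP, and of 6 brain markers 3 reached the median, MBP, NEFL and GFAP. The summed brain markers reached 1599 and 1610 on the exosome arrays and 1484 and 1541 on the PBS arrays, with 0 genes past the threshold. They did not move one way: MBP (log2 difference 0.18), GFAP (0.12) and AQP4 (0.11) stood higher with exosomes. NEFL (-0.15), SNAP25 (-0.05) and SYT1 (-0.08) stood lower. MBP, at a mean of 867 against 764, differed by more than the gap between the mean sums. The part of the brain markers in the results was not tested. The arrays' median intensities ran from 110.8 to 112.4, and their number, 2 a group, limits the precision.

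The comparison asks how the Eph and ephrin transcripts of LNCaP stood after PC-3 exosomes. The members were chosen by the values of this very contrast, in that the brightest probe set of EPHA7 had the lowest log2 difference, exosomes minus PBS, of all 18132 genes. The values of EPHA7 are therefore a description and carry no test, and the same holds for the other members. EPHA7 encodes a receptor for ephrin-A ligands that guides growing axons and other cells in development. RefSeq gives promoter windows for 3 EPHA7 starts on chromosome 6, and the 250 bases before the outermost start are shown because EPHA7 is the gene on which the results turn. They span chr6:93419560-93419809 on the minus strand of GRCh38.p14, with capitals marking short motifs found by a letter search.
EPHA7 upstream: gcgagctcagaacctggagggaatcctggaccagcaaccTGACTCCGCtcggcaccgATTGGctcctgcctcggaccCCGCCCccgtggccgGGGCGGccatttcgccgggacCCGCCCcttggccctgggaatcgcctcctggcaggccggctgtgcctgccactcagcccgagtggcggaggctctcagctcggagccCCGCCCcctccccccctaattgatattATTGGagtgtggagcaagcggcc
The capitals mark 4 GC boxes (GGGCGG), 2 CCAAT boxes (CCAAT) and 1 core of the antioxidant response element (TGACNNNGC), read on both strands, and no 2 of them overlap. GC boxes were in 42.6% of 35116 such stretches before RefSeq starts, CCAAT boxes in 32.0% and the antioxidant core in 10.9%. A match is a run of letters only, and no array value bears on binding there.

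On its brightest probe set, 11726162_at, EPHA7 read 130.1 and 120.2 on the exosome arrays and 249 and 219 on the PBS arrays, in normalized intensity. Both exosome arrays lay far below both PBS arrays. The exosome mean was 125 ± 6.99 and the PBS mean 234 ± 21.4 (SD, 2 arrays each), a log2 difference of -0.90 (SE 0.092), or a 1.86-fold lower value. The 2 PBS arrays differed from each other by 0.19 and the 2 exosome arrays by 0.11 on the log2 scale, so the groups were further apart than the arrays within them. All log2 values here are of the intensity plus 1. Fewer cells with a transcript and less transcript per cell cannot be told apart on these arrays.

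The 4 remaining EPHA7 probe sets were dimmer and their differences smaller. Probe set 11726161_at read 45.6 and 46.7 with exosomes against 53.7 and 73.3 with PBS, a log2 difference of -0.44 (SE 0.14). Probe set 11726163_at read 54.2 and 45.5 against 63.3 and 70.0, a difference of -0.41 (SE 0.11). In both, the groups did not overlap, and the PBS arrays of the former stood wide apart. Probe set 11761670_at read 93.5 and 107 with exosomes against 110.2 and 123 with PBS, a difference of -0.22 (SE 0.10), so that the higher exosome array came close to the lower PBS array. Probe set 11726164_at read 13.5 and 14.1 against 14.1 and 12.9, a difference of 0.03 (SE 0.072), with the groups overlapping. That last probe set lay near the low end of the 23 background controls, which ran from 10.4 to 3750 with a median of 19.4. These controls differ in base content and give no cutoff for a single probe set. EPHA7 was lower with exosomes in 4 of 5 probe sets without overlap, on a background of 20.5% of all probe sets. The brightest of them chose the gene, and all 5 read the same gene on the same arrays, so nothing is read from this count.

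**Figure D1:**
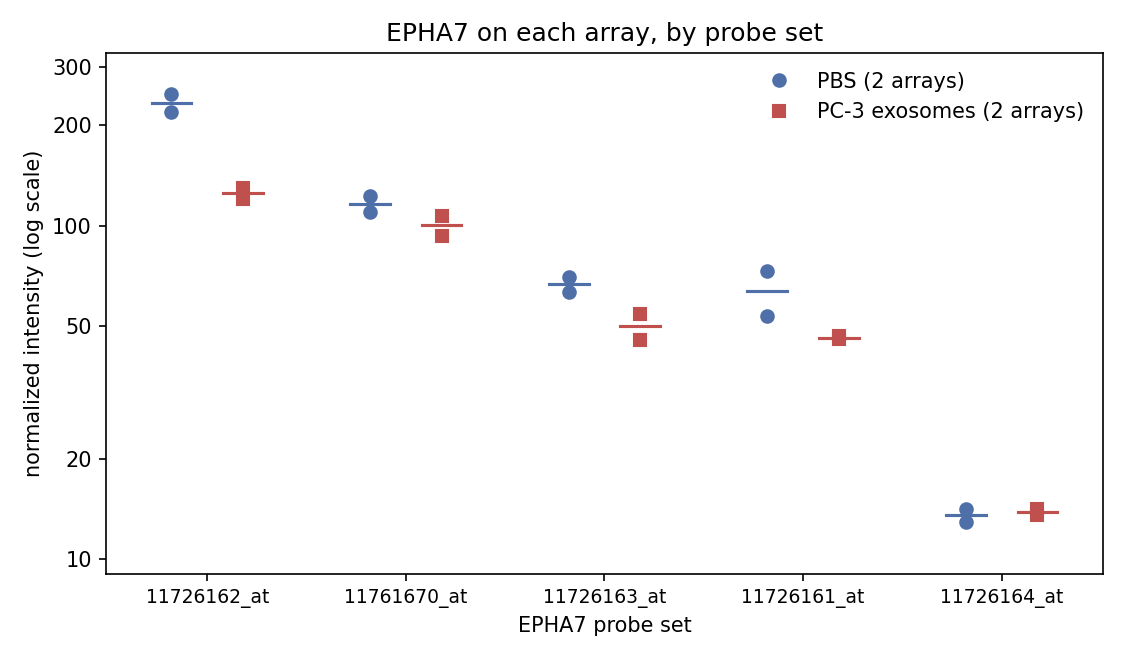
Normalized intensity (log axis) of the 5 EPHA7 probe sets on each array, PBS as circles and PC-3 exosomes as squares, with a line at each group's mean of 2 arrays. The brightest probe set reads 249 and 219 with PBS against 130.1 and 120.2 with exosomes, and the dimmest reads about the same in both groups.

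The difference of EPHA7 kept its sign in each of 12 other settings that gave it a value, between -1.03 and -0.39. The other variance models and the replicate block cannot change a log2 difference, so they gave -0.895 by construction. Every setting used arrays on which EPHA7 was chosen for its low value, so nothing is read from the kept sign. The smallest size, -0.39, came from taking the mean of its 5 probe sets in place of the brightest. Leaving out 1 array at a time gave -0.99 to -0.80. EPHA7 was below the median level of all genes, so a filter at that level gave it no value.

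**Figure D2:**
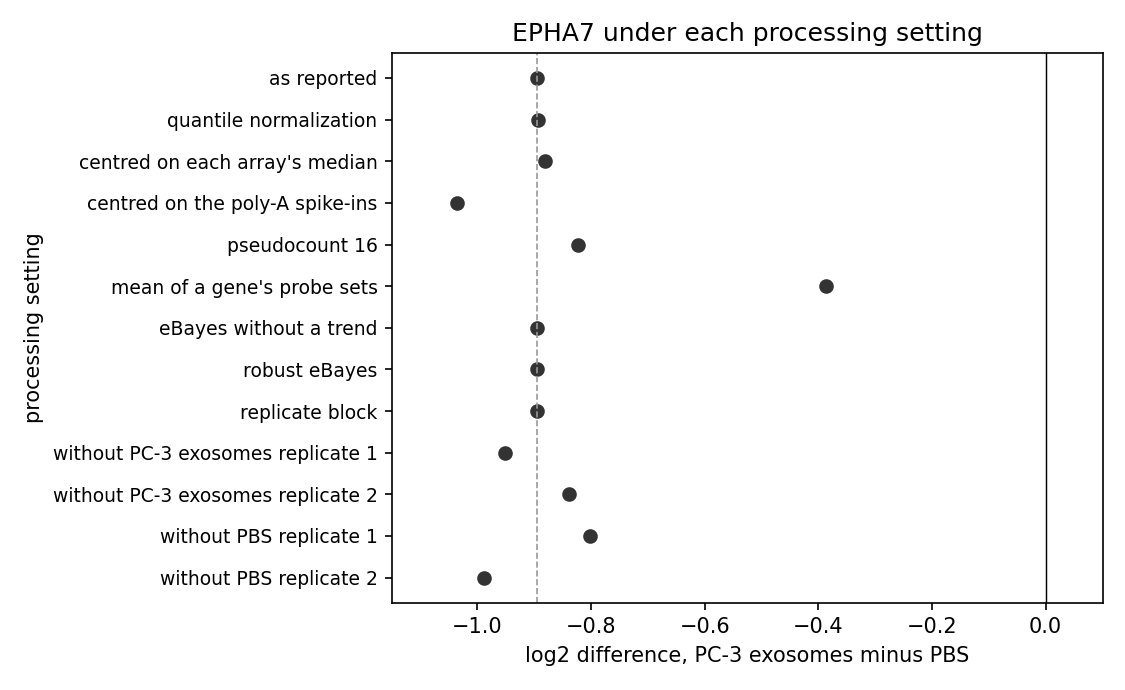
Log2 difference of EPHA7, PC-3 exosomes minus PBS, as reported (dashed line) and under each other setting, 1 point a setting. All points lie below 0, from -1.03 with arrays centred on spike-in controls to -0.39 with the mean of its probe sets. The variance models and the replicate block cannot move the point, and every setting used arrays on which EPHA7 was chosen.

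Genes were also fitted across the whole table with limma, with the threshold at a Benjamini-Hochberg adjusted p under 0.05. Over all 18132 genes 127 were higher and 34 lower with exosomes, 0.888% in all, 0.700% for the higher and 0.188% for the lower ones. Among the 10 members 0 were higher and 1, EPHA7, was lower, and since the contrast chose it nothing is read from that count. At the level of single probe sets 107 were higher and 9 lower of 44988, 0.258% in all, 0.238% for the higher and 0.0200% for the lower ones, and 1 of the 29 member probe sets was among them, the brightest of EPHA7. Fewer arrays gave smaller counts over all genes. Each such fit takes the spread of the single array left in a group from the pair in the other group, so the counts describe fits with 1 residual degree of freedom and are no check of single calls. Dropping exosome replicate 1 left 40 higher and 7 lower, dropping exosome replicate 2 left 28 and 5, dropping PBS replicate 1 left 40 and 7, and dropping PBS replicate 2 left 30 and 4. The 9 lower probe sets fell to 0 without any 1 of the 4 arrays, exosome replicates 1 and 2 and PBS replicates 1 and 2, and the 107 higher ones to 4, 1, 0 and 0 in that order. When the 24 poly-A spike-in controls were used to centre the arrays, 60 genes were higher and 326 lower in place of 127 and 34. That scale moved the median log2 difference of all genes from -0.01 to -0.15 and lowered each difference by 0.14.

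Of the other EphA receptors, EPHA2, a receptor for ephrin-A1 that drives invasion in many carcinomas, differed by less than its SE on the brightest probe set. It read 168.9 and 168.1 with exosomes against 167.8 and 160.0 with PBS, a log2 difference of 0.04 (SE 0.076). The groups did not overlap, by the narrowest of margins. Its second probe set read 64.3 and 57.1 against 63.9 and 66.2, a difference of -0.10 (SE 0.094), with overlap. The 2 probe sets of this gene differed in sign, and their mean stood at -0.03.

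EPHA4, which binds both ligand classes, read 77.6 and 71.9 with exosomes against 81.4 and 84.6 with PBS on its brightest probe set, a log2 difference of -0.15 (SE 0.088). Its exosome arrays lay below its PBS arrays. Its 3 dimmer probe sets did not follow 1 direction: the differences were -0.06 (SE 0.11), -0.01 (SE 0.075) and 0.18 (SE 0.077), and in the last, at 25.9 and 25.3 against 23.0 and 21.8, the exosome arrays lay above. As the mean of its probe sets EPHA4 stood at -0.01.

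EPHA1, the founding member of the family, had overlapping arrays on both of its probe sets. The brighter read 85.8 and 102 with exosomes against 90.2 and 89.2 with PBS (log2 difference 0.06, SE 0.10), and the dimmer differed by -0.09 (SE 0.095). EPHA3, a receptor for ephrin-A5, was dim on all 3 of its probe sets, with no array above 39.0. The differences of its probe sets were 0.04 (SE 0.11), -0.14 (SE 0.079) and 0.12 (SE 0.068). The second of them read 30.9 and 30.2 against 33.9 and 33.8 and the third 13.6 and 13.5 against 11.9 and 12.8, so the arrays parted in opposite directions.

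The EphB receptors bind ephrin-B ligands. EPHB3, known from the ordering of intestinal epithelium, read 220.9 and 220.9 with exosomes against 226 and 219.9 with PBS on its single probe set, a log2 difference of -0.01 (SE 0.070). The exosome arrays lay between the PBS arrays. EPHB4, the receptor of ephrin-B2 in veins and in many carcinomas, read 316 and 298 with exosomes against 319 and 280.0 with PBS on its brightest probe set, a difference of 0.04 (SE 0.083). These groups overlapped widely, and as the mean of its 5 probe sets EPHB4 stood at -0.10. Its 4 other probe sets had differences of -0.02, -0.13, -0.19 and -0.21, and in 2 of them the exosome arrays lay below the PBS arrays. One of these read 93.0 and 84.6 against 95.7 and 98.3, the other 59.7 and 64.3 against 69.3 and 72.3.

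Of the ligands, EFNA1, ephrin-A1, read 1276 and 1261 with exosomes against 1206 and 1194 with PBS, a log2 difference of 0.08 (SE 0.048). Its second probe set read 499 and 516 against 481 and 451, a difference of 0.12 (SE 0.064). In both, the exosome arrays lay above the PBS arrays, by about 1.06-fold and 1.09-fold in the means of log2 values. EFNA4, another ligand of EphA receptors, read 704 and 707 with exosomes against 708 and 679 with PBS, a difference of 0.03 (SE 0.056), with overlap.

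EFNB2, the transmembrane ligand of EPHB4, read 1978 and 2134 with exosomes against 1993 and 1923 with PBS on its brightest probe set, a log2 difference of 0.07 (SE 0.053). The arrays overlapped. Its dimmest probe set stood higher, at 96.4 and 111.1 against 92.4 and 78.5, a difference of 0.28 (SE 0.11), the highest of the 29 member probe sets. The remaining 2 probe sets had differences of 0.05 (SE 0.059) and 0.08 (SE 0.091).

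All 7 probe sets of the 3 ephrin members had a difference above 0, from 0.03 to 0.28 with a median of 0.08, while on the scale of the poly-A spike-ins the brightest probe sets of EFNA1, EFNA4 and EFNB2 stood below 0, at -0.06, -0.11 and -0.07. The 17 probe sets of the 6 receptors other than EPHA7 ran from -0.21 to 0.18 with a median of -0.02, 6 above 0 and 11 below. Over all probe sets the median was -0.01, with 20620 of 44988 above 0. Of the ephrins outside the members, EFNA5 (-0.14), EFNB1 (-0.07) and EFNB3 (-0.03) stood below 0 on their brightest probe sets. EFNA2 (0.04) and EFNA3 (0.01) stood above 0 on theirs. Arrays of the 24 probe sets without EPHA7 did not overlap in 7 cases with exosomes higher and in 4 with exosomes lower, on a background of 17.2% and 20.5% of all probe sets. By gene the 9 members other than EPHA7 had a median difference of 0.04 on their brightest probe sets, against -0.01 over all genes and -0.10 for the 9 on the spike-in scale. Of the 10 genes 5 were at or above the median level: EPHB3, EPHB4, EFNA1, EFNA4 and EFNB2.

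**Figure D3:**
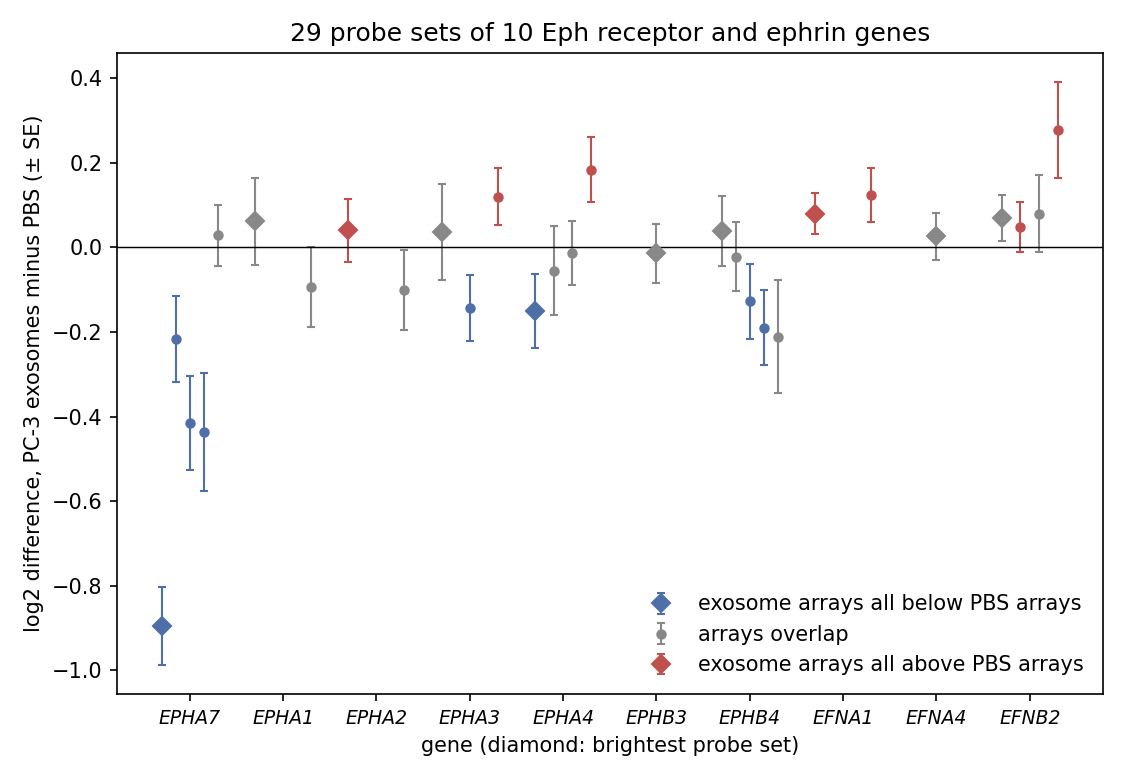
Log2 difference, PC-3 exosomes minus PBS, with its SE for the 29 probe sets of the 10 genes, ordered by brightness within a gene, with a diamond for the brightest. The brightest EPHA7 probe set lies at -0.90 and the other genes between -0.21 and 0.28, on the scale of the deposited values; with spike-in centring each point would lie 0.14 lower.

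The other genes of the family are those left once the members had been taken with results of this contrast known. Of these 12 genes 11 were measured, and EPHB2 was not analysed here. In the limma fit over all genes 0 of the 11 were higher and 0 lower, and at an unadjusted p under 0.05, which 10.9% of all genes reached, 0 stood higher and 2 lower. Their median log2 difference was -0.08, from -0.22 to 0.04, with 9 below 0 and 2 above, against a median of -0.01 over all genes. The arrays did not overlap in 4 of the 11, all with exosomes lower, on a background of 21.9% of all genes. Over all 35 of their probe sets the direction was more mixed, with 14 above 0, 21 below and a median of -0.06. Arrays did not overlap in 4 with exosomes higher and 10 lower, on a background of 17.2% and 20.5% of all probe sets.

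EFNA5, ephrin-A5, a known ligand of EPHA7 and EPHA3, read 2411 and 2421 with exosomes against 2641 and 2665 with PBS. The log2 difference was -0.14 (SE 0.041, limma adjusted p = 0.236), lower in 2 of 2 arrays. Its other probe sets had differences of -0.11 and -0.12, and in each of the 3 the exosome arrays lay below the PBS arrays, in one of them barely. EPHB1, a receptor of ephrin-B ligands, read 86.4 and 82.9 against 96.4 and 101.4, a difference of -0.22 (SE 0.083, limma adjusted p = 0.349). Of the 5 dimmer probe sets of EPHB1 one differed by -0.23 without overlap, and the other 4 overlapped, at -0.06, 0.05, 0.002 and -0.13. EPHB6, which lacks kinase activity, had a difference of -0.16 (SE 0.090) and EPHA5 one of -0.08 (SE 0.079), both without overlap. EPHA5 was dim, with no array above 18.7 on that probe set, and its dimmer probe set differed by 0.05 with overlap. EPHA8 had a difference of -0.12 (SE 0.10), EPHA6 of -0.10 (SE 0.11) and EFNB1 of -0.07 (SE 0.13). EPHA10, EFNB3, EFNA3 and EFNA2 lay between -0.03 and 0.04. Each of these 7 had overlapping arrays on its brightest probe set. Among dimmer probe sets without overlap, EFNA3 (0.25) and EFNB1 (0.10) stood higher with exosomes and EPHA6 (-0.16) lower. EPHA10 and EPHA8 had such probe sets in both directions.

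Adaptors, exchange factors, kinases and proteases that act with Eph receptors were taken as a further list, of which 51 of 57 were measured. By limma over all genes 0 were higher and 0 lower, and at p under 0.05 without adjustment 3 stood higher and 1 lower, where 10.9% of all genes passed. The median log2 difference was -0.0036, from -0.20 to 0.16, with 25 genes above 0 and 26 below, against 7978 and 10154 over all genes. SHC1, an adaptor of receptor tyrosine kinases, had the smallest p: it read 3191 and 3263 with exosomes against 2882 and 2875 with PBS, a difference of 0.16 (SE 0.040, limma adjusted p = 0.137). PTK2, the focal adhesion kinase, read 787 and 829 against 706 and 740.4, a difference of 0.16 (SE 0.057, limma adjusted p = 0.328). In both genes the exosome arrays lay above the PBS arrays, and neither passed the threshold. Both were named for the smallest p of the list, so nothing is read from that order of the arrays. Over the 51 genes the arrays did not overlap in 10 with exosomes higher and in 8 lower. Over all 18132 genes these counts were 3233 and 3976.

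**Figure D4:**
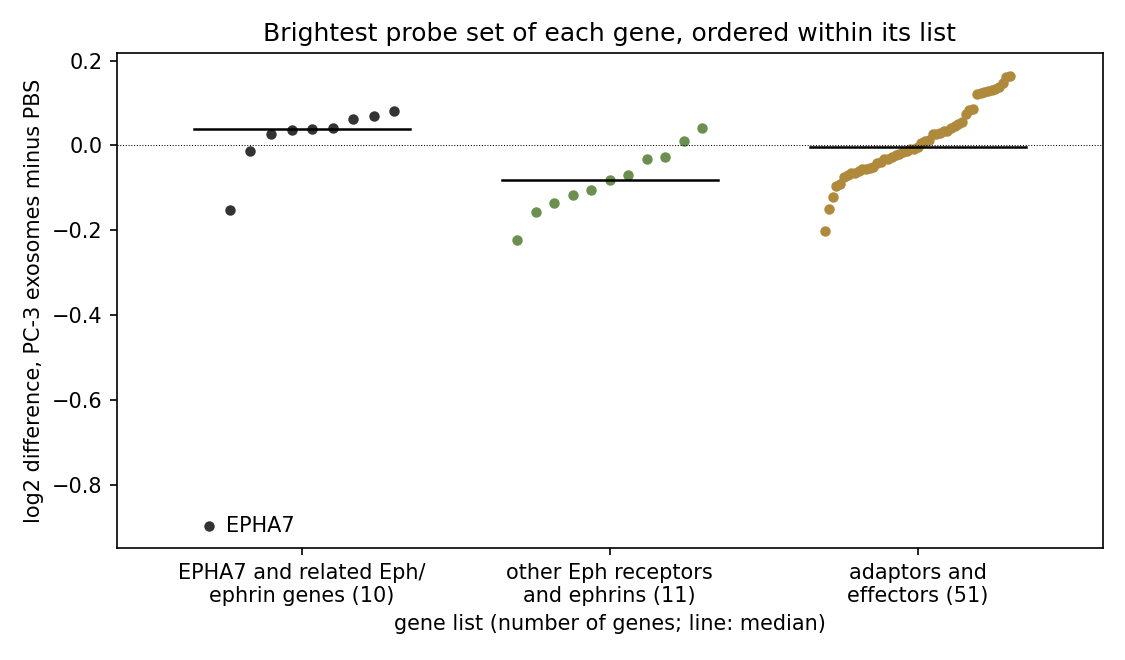
Log2 difference, PC-3 exosomes minus PBS, of the brightest probe set of each gene, ordered within the 10 member genes, 11 other Eph receptors and ephrins and 51 adaptors and effectors, with a line at each median. EPHA7 lies at -0.90, and the remaining genes between -0.22 and 0.16.

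The genes whose 4 values were most like those of EPHA7 were found by the Euclidean distance between log2 values centred on each gene's mean, over the 4 arrays and among genes at or above the median level. They were RIPOR2 at a distance of 0.27, DAPK1 at 0.30, ACKR3 at 0.34 and DSEL at 0.37. EPHA7 itself lay below the median level, where genes were not searched, so closer genes may exist there. RIPOR2, an inhibitor of the GTPase RhoA, read 523 and 499 with exosomes against 813 and 797 with PBS, a log2 difference of -0.65 (SE 0.056). DAPK1, a death-associated kinase, differed by -0.70 (SE 0.073), ACKR3, an atypical chemokine receptor, by -0.70 (SE 0.072) and DSEL, related to dermatan sulfate epimerase, by -0.55 (SE 0.049). With 4 arrays in 2 groups this likeness says little more than that these genes were also lower with exosomes.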

How the data were processed

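The authors deposited normalized Affymetrix intensity values on a linear scale, 1 per probe set and array. MAS5 and RMA are named, without role or version, per the submitters' processing notes; the genome build is not given in the sources used here. Of 49395 probe sets, 102 controls, 1832 naming several genes and 2473 naming none were left out of the tests. Values were taken to log2 of intensity plus 1 and fitted with limma 3.58.1 in R 4.3.3 (lmFit, eBayes with trend; 2 residual and 7.0 prior degrees of freedom by gene), PC-3 exosomes minus PBS, two-sided, once on the brightest probe set of each gene (the source of values for genes that are not members) and once on every probe set (the source of member values). With 2 arrays a group the smallest two-sided p of an exact permutation test is 0.333. The script was tested on simulated data. Members and lists were chosen with earlier results of these data known. Named were all members, every other measured family gene, the 2 effector genes of smallest p where none passed, and 4 genes near EPHA7. These 4 were the nearest among genes at or above the median level. Alternatives were other normalizations, centrings, pseudocounts, filters, gene summaries and variance models, a replicate block and leaving out each array. RefSeq sequences of GRCh38.p14 matched 10 of 10 members by symbol and gene ID. Figures were drawn with matplotlib 3.10.9.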

Additional observations from a re-analysis of the deposited data

How the results depend on the processing

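Each of 13 alternatives was run where it could give a value. The counts of other Eph receptors, ephrins and effector genes past the threshold were 0 in every one. Some settings called few genes at all, and the filter at the median level kept only 3 of the 11 other family genes. A count of 0 says little there. The log2 difference of EPHA7 was -0.895 as reported, -1.035 on the poly-A spike-in scale and -0.387 as the mean of its probe sets. The 127 genes higher and 34 lower became 60 and 326 on the spike-in scale, 213 and 84 among genes at or above the median level, and 18 and 3 with eBayes without a trend; quantile normalization gave 67 lower. The 107 probe sets higher and 9 lower became 173 and 28 with quantile normalization, 185 and 34 at or above the median level, and 10 and 0 without a trend; the spike-in scale gave 748 lower. The replicate number is not explained in the labels and same-numbered arrays did not deviate together (r = -0.04 across genes); with it as a replicate block, 2 genes were higher and 0 lower, and 0 and 0 probe sets. Leaving out 1 array gave 28 to 40 genes higher and 4 to 7 lower, and 0 to 4 probe sets higher and 0 to 0 lower. Of 182 further values 18 moved by more than the spread between arrays, 12 of them on the spike-in scale. The 182 include values under the other variance models and the replicate block, which cannot change a log2 difference. The share that moved is therefore no measure of stability. Fewer samples or genes tested enter some of the changes by construction. For the other changes the cause was not tested.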

Other observations

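EFNA4, EFNA3 and EFNA1 follow each other in the RefSeq annotation with 0 protein-coding genes between neighbours, and their brightest probe sets had log2 differences of 0.03, 0.01 and 0.08. EFNA3 had 5 probe sets, of which 1 read 215 and 216 with exosomes against 190.1 and 172 with PBS, a difference of 0.25 (SE 0.079), while the other 4 lay between -0.06 and 0.07; it was singled out after its values were seen.

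The promoter windows of the members ranged from 12 to 49 CG pairs in 300 bases, against a median of 14 over all 35116 windows. The window of EPHA7 whose upstream part is printed above held 24 CG pairs and was 68.3% G or C, against a median of 58.7% over all windows. The other 2 windows of EPHA7 held 24 and 21 CG pairs and were 63.3% and 58.0% G or C. They had 1 GC box each, 0 CCAAT boxes and 0 antioxidant cores, and the one with 21 CG pairs also had 2 TATA boxes. EFNB2 had the most CG pairs among the 13 windows of the members and EPHA4, in 1 of its 2 windows, the fewest. EPHA3 had 17 CG pairs, and EPHA2 and EFNA4 had 20 each. In the 250 upstream bases a GC box stood in 12 of those 13 windows, a CCAAT box in 7, an antioxidant core in 3 and a TATA box (TATAAA, in 10.7% of all windows) in 2. The amino acid response core (TGATGCAA, 0.772% of all), the E box (CACGTG, 6.34%) and an E2F site (TTTCGCGC, 0.439%, or TTTGGCGC, 0.55%) stood in 0 of the 13. EPHA7 has 3 windows, of which 2 overlap, and EPHA4 has 2, so the windows are not independent.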
